A study of Rattus norvegicus with 6 samples.

Results

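The genes described here make fatty acids from acetyl-CoA in the liver and supply the NADPH that this needs. They are Acly, Acaca, Acacb, Fasn, Me1, Slc25a1, Acss2, Pgd and Thrsp, 9 of the 14217 genes on the array that had a probe set of their own. They were chosen by name, as all probe sets whose platform annotation gave a single gene symbol on this list, which took in 14 of 31042 probe sets: 3 for Thrsp, 2 each for Acaca, Fasn and Me1, and 1 for each of the other 5 genes. Another 4 probe sets carried Pgd together with other genes and were left out.

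Liver RNA of male Wistar rats, 6 weeks old and about 150 g on purchase, was measured on 6 Affymetrix arrays, 3 from rats given the isoenergetic low-protein diet (5P) and 3 from rats given the control diet (15P). All rats had 4 days on pellets and 4 days of training to eat the control diet in a daytime window, then ate the assigned diet for 8 hours and had no food for 16 hours before the liver was taken. The comparison therefore concerns 1 feeding period on little protein, read in the fasted state. No label states that the arrays of a diet came from different rats. The p-values therefore reflect the spread among these 6 samples, part of which may be technical.

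Fatty acid synthesis starts with citrate, which leaves the mitochondrion through the carrier Slc25a1 and is split by Acly into oxaloacetate and acetyl-CoA; Acss2 makes acetyl-CoA from acetate. The carboxylases Acaca and Acacb turn acetyl-CoA into malonyl-CoA, and Fasn builds palmitate from it. Fasn consumes NADPH, which the cytosolic malic enzyme Me1 and the pentose phosphate enzyme Pgd regenerate, and Thrsp, the Spot 14 protein, is a nuclear and cytosolic regulator of lipogenesis that responds to thyroid hormone and to carbohydrate. In liver the genes are known as targets of SREBP-1c and ChREBP, which respond to insulin and to glucose, and fasting lowers many of them.

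The promoters are shown first, as background. Whether their letters bear on the direction of any gene's difference was not tested. RefSeq promoter sequences of assembly GRCr8 were at hand for 7 of the 9 genes (Acly, Acacb, Me1, Slc25a1, Acss2, Pgd and Thrsp), and the 250 bases before each annotated start were searched on both strands. The letters CCAAT, the binding motif of NF-Y, occurred in 6 of the 7, all but Me1, against 34.0% of 33469 rat promoters. The GC box GGGCGG, the motif of Sp1, occurred in 6 of the 7, all but Acacb, against 30.5% of promoters. The E-box in its loose form CANNTG, which contains the strict form CACGTG, was found in 3 of the 7 (Acacb, Acss2 and Pgd) against 65.5%, and the strict form in 0 of 7 against 5.59%. The sterol regulatory element in the form known from the LDL receptor, TCACNCCAC, was in 0 of 7 against 0.974%. For Acly and Acss2 the start in the promoter table lies inside the annotated extent of the gene, so that other starts exist, whose promoters were not searched. A match describes letters in this window, and its absence says only that these letters are not in it. Below are 3 genes that were lower in low-protein livers, Slc25a1 at chr11:96559804-96560053 (plus strand), Pgd at chr5:164882030-164882279 (minus strand) and Thrsp at chr1:161138965-161139214 (minus strand), and the exception, Me1, at chr8:96540245-96540494 (minus strand). Each is written 5′ to 3′ in the direction of transcription, with matches to CCAAT and to the GC box, on either strand, in capitals.
Slc25a1: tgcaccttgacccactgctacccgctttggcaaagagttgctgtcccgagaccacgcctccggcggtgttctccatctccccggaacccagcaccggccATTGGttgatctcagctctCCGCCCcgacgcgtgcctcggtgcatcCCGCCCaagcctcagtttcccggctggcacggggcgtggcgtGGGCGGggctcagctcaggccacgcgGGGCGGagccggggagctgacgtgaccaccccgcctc
Pgd: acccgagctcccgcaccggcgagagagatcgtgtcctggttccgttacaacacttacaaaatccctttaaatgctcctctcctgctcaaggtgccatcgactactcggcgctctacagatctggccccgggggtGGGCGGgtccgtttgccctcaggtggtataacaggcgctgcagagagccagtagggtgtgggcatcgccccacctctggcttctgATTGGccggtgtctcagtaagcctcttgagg
Thrsp: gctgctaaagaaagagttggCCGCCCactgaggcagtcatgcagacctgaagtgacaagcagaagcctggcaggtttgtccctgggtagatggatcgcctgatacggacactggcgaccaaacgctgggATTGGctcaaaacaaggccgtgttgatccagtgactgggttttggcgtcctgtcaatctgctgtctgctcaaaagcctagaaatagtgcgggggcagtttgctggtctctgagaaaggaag
Me1: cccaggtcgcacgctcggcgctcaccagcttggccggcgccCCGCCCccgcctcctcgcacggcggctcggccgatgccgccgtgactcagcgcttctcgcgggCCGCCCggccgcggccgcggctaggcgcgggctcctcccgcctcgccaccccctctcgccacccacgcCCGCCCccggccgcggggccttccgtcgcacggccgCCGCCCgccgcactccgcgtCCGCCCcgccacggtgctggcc

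In these windows the CCAAT match began at -151 from the start in Slc25a1, at -31 in Pgd and at -121 in Thrsp, each on the opposite strand. Me1 had 5 GC box matches and a GC content of 83.2%, the highest of the 7; the others ran from 53.6% to 69.6%, and the median of all promoters was 51.2%.

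The arrays were alike in overall level, with median intensities between 33.3 and 34.2. Over the whole array limma called 41 probe sets at a Benjamini-Hochberg adjusted p under 0.05, 11 higher and 30 lower, which is 0.0354% and 0.0966% of those tested (26.8% of the calls were higher; 16.7% of the 78 called with arrays centred on their medians and 40.7% of the 59 called with arrays centred on their 75th percentiles). On the first principal component (36.9% of the variance) the low-protein arrays scored 17.3 to 22.6. Control replicates 1 and 2 scored -26.9 and -22.5. Control replicate 3 scored -10.1, on the side of the controls but nearest of them to the low-protein arrays. Without it 109 probe sets were called, and without any other single array 16 to 22. Of 9 measured hepatocyte markers none passed the test. Their log2 fold changes ran from -0.23 to 0.10 (5 lower). For 2 of the 9 all low-protein arrays lay below all control arrays, as they did for 10.1% of all genes. Their summed intensity, weighted to the brightest of them, was 109141 to 109468 on the low-protein arrays and 110819 to 111961 on the control arrays. Red blood cell markers summed to 4053 to 4323 on the low-protein arrays and to 2865 to 3123 on the control arrays, with 4 of 5 higher. Most of that sum was Hbb, with 3932 to 4180 on the low-protein arrays and 2758 to 3015 on the control arrays. For 2 of the 5 all low-protein arrays lay above all control arrays, as they did for 12.8% of all genes. No member of the lists of 6 Kupffer cell, 5 endothelial, 6 stellate, 5 cholangiocyte and 5 lymphocyte markers passed the test. So few probe sets passed that this does not show equal cell shares. Log2 fold changes ran from -0.09 to 0.43 for Kupffer cell markers (5 higher) and from -0.07 to 0.27 for stellate markers (5 higher). They ran from -0.55 to 0.13 for cholangiocyte (4 lower), -0.08 to 0.06 for endothelial (4 lower) and -0.23 to 0.21 for lymphocyte markers (3 lower). The ratio of 3′ to 5′ GAPDH control signal, a sign of RNA integrity, was 1.30 to 1.43 on the low-protein arrays and 1.21 to 1.29 on the control arrays, while the same ratio for beta-actin overlapped, at 2.66 to 3.02 and 2.59 to 3.05. The part of cell composition, red blood cells and RNA integrity in the results below was not tested.

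Lipogenic RNAs were mostly lower in low-protein livers, by log2 fold changes of -1.77 in Fasn, -0.998 in Acly and -0.89 in Pgd, while Me1 was higher, at 0.66. None of the 14 probe sets passed the test over all probe sets (limma, lowest adjusted p = 0.0739, for Slc25a1), so no gene of the group can be said to have fallen or risen by that standard. At an unadjusted limma p under 0.05, 10 of the 14 probe sets were lower and 1 higher, some with overlapping diets. By the same rule 7.58% of all probe sets were lower and 7.83% higher. Probe sets of the same gene are repeat measurements. At the highest-mean probe set of each gene, 7 of the 9 genes were lower and 1 higher, against 1140 and 1196 of all 14217 genes. At the adjusted threshold 0.132% of all probe sets passed in either direction. Taking for each gene its probe set with the highest mean over the arrays, 8 of 9 genes were lower, against 42.4% of all genes. On 6 of the 9 (Acly, Acacb, Fasn, Slc25a1, Pgd and Thrsp) all low-protein arrays lay below all control arrays, as they did for 10.1% of all genes; this count was 7 with arrays centred on their medians (12.97% of all genes) and 5 with arrays centred on their 75th percentiles (6.91%). The median log2 fold change was -0.56 over the 9 genes and 0.03 over all genes. Without control replicate 3 the count of lower genes was again 8 of 9 and the median was -0.41, with Slc25a1 at -0.54, Acaca and Thrsp at -0.41 each and Acacb at -0.29. In whole liver, fewer cells that express a gene and less RNA per cell cannot be told apart.

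**Figure D1:**
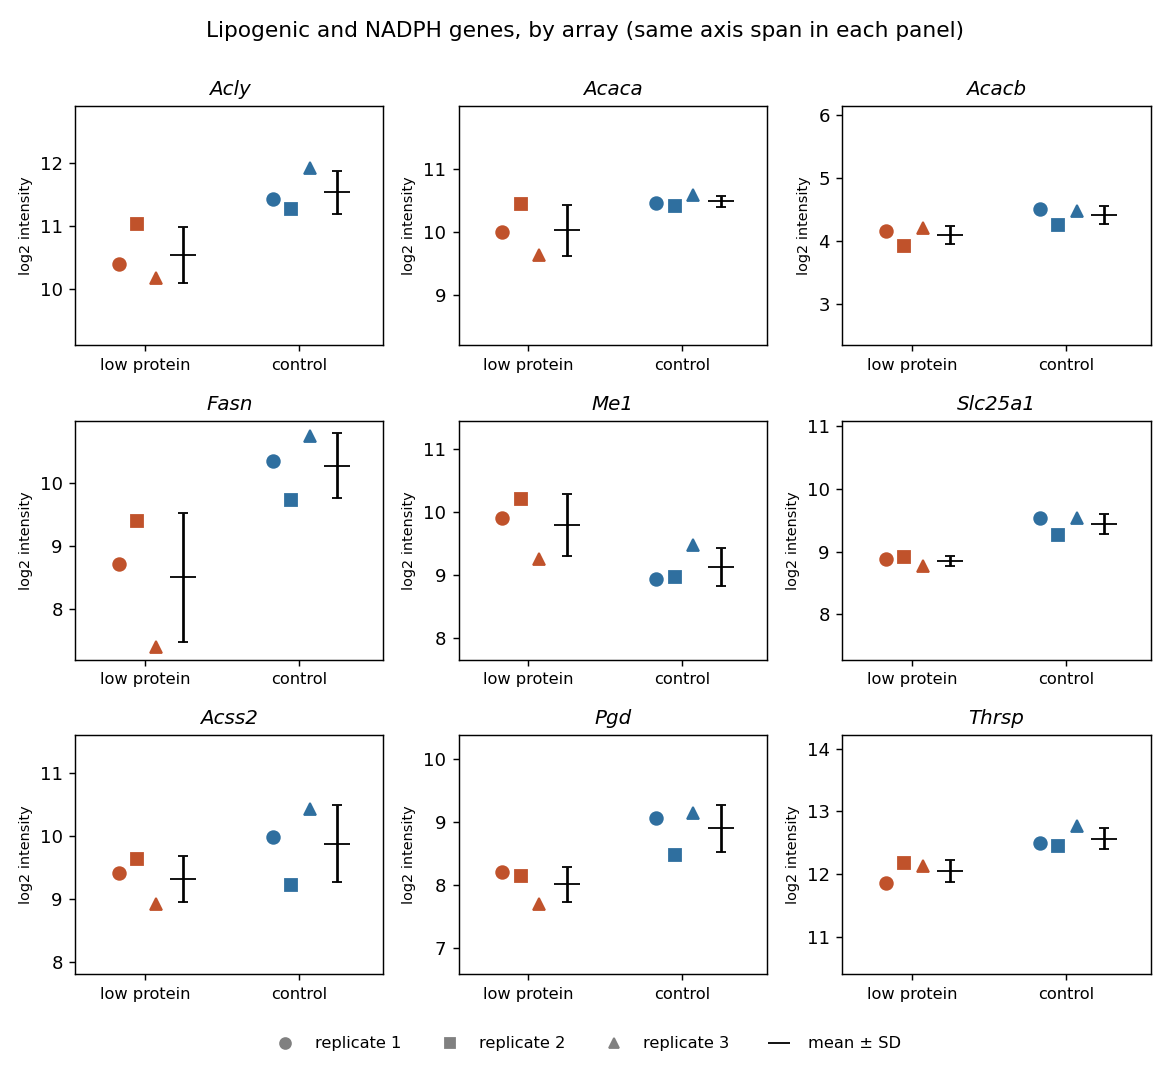
Log2 intensity of the 9 genes on each of the 6 arrays, at the probe set with the highest mean; symbols mark replicates, and the bar is the mean ± SD (n = 3 per diet). The low-protein arrays lie below the control arrays for Acly, Acacb, Fasn, Slc25a1, Pgd and Thrsp, overlap them for Acaca and Acss2, and for Me1 average 9.79 against 9.12 in controls.

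Citrate export and cleavage are the first steps of the pathway, and the genes of both had all low-protein arrays below all control arrays. Slc25a1 (gene ID 29743), the mitochondrial citrate carrier, had intensities of 474, 483 and 435 in low-protein livers and of 737, 614 and 740 in control livers. The diets did not overlap, and the low-protein values lay close together. Its mean log2 intensity was 8.86 ± 0.08 in low-protein livers and 9.44 ± 0.15 in control livers (SD, n = 3 each). The log2 fold change was -0.58 (SE 0.105, 95% interval -0.82 to -0.35), with an adjusted p = 0.0739 by limma; it ran from -0.67 to -0.54 when single arrays were left out.

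Acly (gene ID 24159), the ATP citrate lyase, had intensities of 1346, 2091 and 1154 in low-protein livers and of 2737, 2453 and 3856 in control livers. All 3 low-protein values were below the lowest control value, and low-protein replicate 2 came nearest to it. The log2 fold change was -0.998 (SE 0.237, 95% interval -1.54 to -0.46, limma adjusted p = 0.125), and 50 of 14217 genes had a lower one. Without control replicate 3, which was the highest, it was -0.81.

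Acss2 (gene ID 311569), the cytosolic and nuclear acetyl-CoA synthetase, read 677, 790 and 481 in low-protein livers and 1006, 597 and 1377 in control livers. Control replicate 2 lay below low-protein replicates 1 and 2, so the diets overlapped, and the control values spread more than the low-protein values (SD 0.61 against 0.37 in low protein, on the log2 scale). Its log2 fold change was -0.56 (SE 0.294, limma adjusted p = 0.401), its 95% interval of -1.23 to 0.11 included 0, and it stood at -0.29 without control replicate 3 and at -0.89 without control replicate 2.

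The carboxylases, which make malonyl-CoA, had smaller differences. Acaca (gene ID 60581), the cytosolic form that feeds fatty acid synthesis, had 1015, 1395 and 789 in low-protein livers and 1403, 1361 and 1529 in control livers at its brighter probe set. Low-protein replicate 2 reached the control range, and the other low-protein arrays lay below it. The log2 fold change was -0.46 (SE 0.185, 95% interval -0.89 to -0.04, limma adjusted p = 0.288), and -0.26 without low-protein replicate 3. The second Acaca probe set was dim, with intensities of 27.7 to 35.2 in low-protein livers and 30.7 to 34.4 in control livers, and had a log2 fold change of -0.10 (SE 0.113; -0.20 to -0.03 when single arrays were left out).

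Acacb (gene ID 116719), the form at the outer mitochondrial membrane whose malonyl-CoA restrains fatty acid entry into mitochondria, read 17.8, 15.2 and 18.4 in low-protein livers and 22.8, 19.1 and 22.2 in control livers. The diets did not overlap, but the probe set was among the dim ones, with a mean above that of 35.2% of probe sets, and the files carry no detection call. Its log2 fold change was -0.32 (SE 0.113, 95% interval -0.58 to -0.06, limma adjusted p = 0.235).

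Fasn (gene ID 50671), the fatty acid synthase, differed by more than any other of the 9 genes and varied most among the low-protein arrays. Its brighter probe set had intensities of 423, 677 and 168 in low-protein livers and of 1309, 849 and 1728 in control livers. The diets did not overlap, and low-protein replicate 3 was far below the rest. Fasn averaged 8.51 ± 1.02 in low-protein livers and 10.28 ± 0.52 in control livers (log2 intensity, SD, n = 3 each). The log2 fold change was -1.77 (SE 0.464, 95% interval -2.84 to -0.71, limma adjusted p = 0.150), lower than in all but 10 genes, and leaving out low-protein replicate 3 gave -1.22, and control replicate 3 -1.54.

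At the other Fasn probe set the difference was -1.64 on the log2 scale (SE 0.576, limma adjusted p = 0.236), and -0.96 without low-protein replicate 3. It read 127, 186 and 37.0 in low-protein livers and 304, 175 and 495 in control livers, so that low-protein replicate 2 lay above control replicate 2. Both probe sets put the arrays in the same order within each diet.

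**Figure D2:**
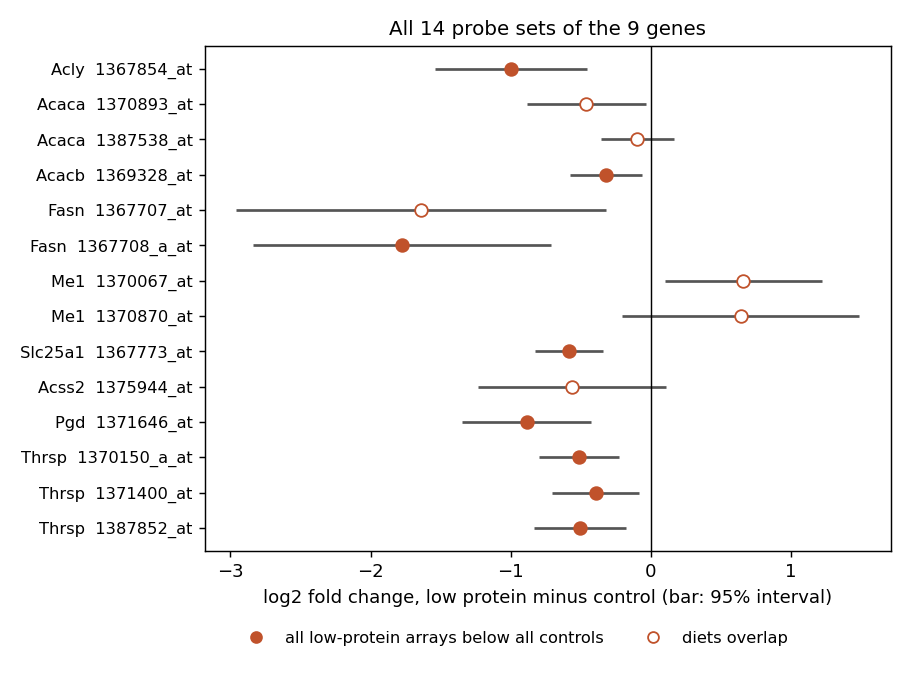
Log2 fold change of each of the 14 probe sets, low protein minus control, with its 95% interval from limma; filled points mark probe sets on which all low-protein arrays lay below all control arrays. Of the 14, 12 lie below 0, 8 are filled where 9.12% of all probe sets would be, and the 2 Me1 probe sets lie above 0 at 0.66 and 0.64.

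The NADPH enzymes of the group parted. Pgd (gene ID 100360180), the 6-phosphogluconate dehydrogenase of the oxidative pentose phosphate branch, had 295, 283 and 207 in low-protein livers and 538, 357 and 569 in control livers. The diets did not overlap, and control replicate 2 was the lowest control. Its log2 fold change was -0.89 (SE 0.200, 95% interval -1.34 to -0.43, limma adjusted p = 0.110), with the level in controls 1.85-fold higher, and -0.76 without control replicate 3.

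Me1 (gene ID 24552), the cytosolic malic enzyme, was on the other side. Its brighter probe set read 954, 1186 and 607 in low-protein livers and 491, 497 and 713 in control livers. Low-protein replicate 3 lay below control replicate 3, and the other low-protein arrays lay above all controls. The log2 fold change was 0.66 (SE 0.244, 95% interval 0.10 to 1.22, limma adjusted p = 0.254), or 1.58-fold, and 0.84 without control replicate 3; leaving out low-protein replicates 2 or 3 gave 0.45 or 0.93. The second Me1 probe set had 457, 755 and 297 in low-protein livers and 241, 231 and 486 in control livers. Its log2 fold change was 0.64 (SE 0.369, 95% interval -0.20 to 1.49), and single arrays moved it widely, to 0.30 without low-protein replicate 2, 0.97 without low-protein replicate 3 and 0.99 without control replicate 3.

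Thrsp (gene ID 25357), the Spot 14 regulator, was bright on all 3 of its probe sets, each of which separated the diets. The brightest read 3706, 4626 and 4506 in low-protein livers and 5772, 5575 and 6967 in control livers. Its log2 fold change was -0.51 (SE 0.126, 95% interval -0.80 to -0.22, limma adjusted p = 0.132), and the other 2 probe sets had -0.39 (SE 0.137) and -0.50 (SE 0.144). Thrsp did not follow Fasn in its order of low-protein arrays, replicate 1 being the lowest on each of the 3 probe sets.

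Variation inside each diet was shared by much of the group. Acly, Acaca, Fasn, Slc25a1 and Acss2, 5 of the 9 genes, shared 1 order of arrays within each diet. Low-protein replicate 2 was highest and replicate 3 lowest, and control replicate 3 was highest and replicate 2 lowest. This order was picked as the commonest among the 9 genes, so its 2.93% share of all genes is a description and no test. The second Me1 probe set had it too, and the brighter one differed from it only in control replicates 1 and 2, which read 491 and 497. With the diet means removed, Me1 correlated with Fasn at r = 0.94, with Acly at 0.91 and with Acaca at 0.91, although its mean difference between diets had the opposite sign. Acacb correlated with Fasn at -0.29 and Thrsp at 0.23. These are descriptions over the same 6 arrays, which share their normalization. Of the 36 pairs of genes, 32 had r above 0, with a median of 0.64. The same values for pairs of other genes were not computed, so this is not shown to be particular to the group. Control replicate 3, the control nearest to the low-protein arrays on the first principal component, was the highest of all 6 arrays for Acly, Acaca, Fasn, Slc25a1, Acss2, Pgd and Thrsp. Low-protein replicate 3, the farthest from the controls on that component, was the lowest of all 6 arrays for 6 of the 9 genes, the same genes without Thrsp.

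**Figure D3:**
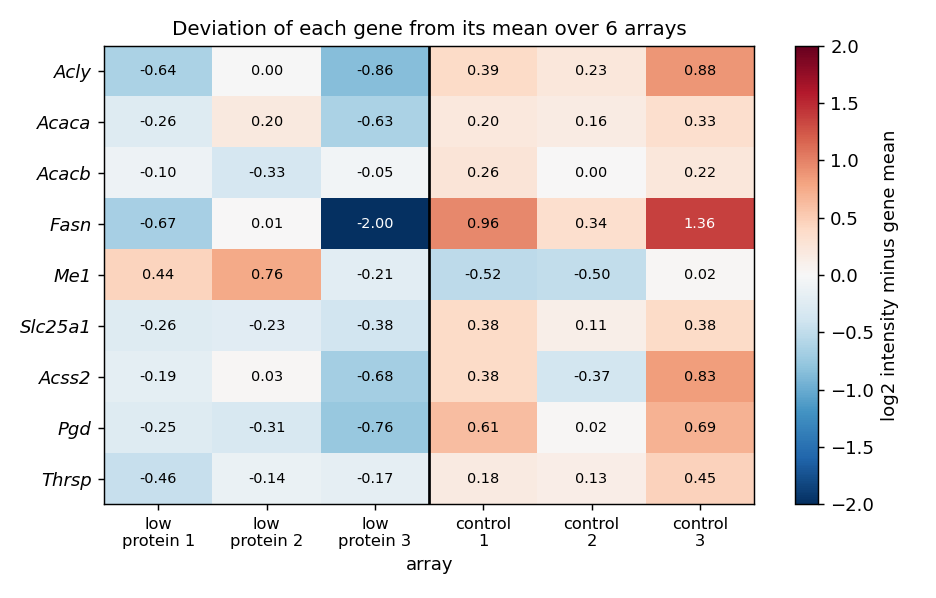
Deviation of each gene's log2 intensity from its own mean over the 6 arrays, low-protein arrays on the left and control arrays on the right. Control replicate 3 and low-protein replicate 3 hold the extremes for Fasn, with 1.36 on control replicate 3, and Me1 has its highest value, 0.76, on low-protein replicate 2.

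The genes whose levels over the 6 arrays were most like the mean of the 9 were Sec31a, a coat protein of vesicles leaving the endoplasmic reticulum, Hnrnpc, an RNA-binding protein, the zinc finger genes Zfp691 and Zfp266, Ngrn and Thoc2, a subunit of an mRNA export complex. Their Pearson correlations with that mean ran from 0.983 to 0.997 over 6 arrays, the highest of 14208 genes compared, of which 50 reached 0.95. Their own log2 fold changes ran from -0.48 in Thoc2 to -0.05 in Zfp691, and none passed the test.

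Other enzymes of NADPH supply and of the pentose phosphate pathway were split in direction. Of 13 measured genes none passed, 7 were higher and 6 lower, and their median difference was 0.04 on the log2 scale. All low-protein arrays lay above all control arrays for 3 of them, H6pd, Taldo1 and Tkt, as they did for 12.8% of all genes. They lay below all control arrays for another 3, Pgls, Rpe and Rpia, as they did for 10.1% of all genes. Taldo1, the transaldolase of the non-oxidative pentose phosphate branch, had 1748, 2161 and 1450 in low-protein livers and 1218, 1072 and 1240 in control livers, a log2 fold change of 0.59 (SE 0.146, limma adjusted p = 0.138). Tkt, the transketolase of the same branch, had 0.50 (SE 0.176; 0.29 without low-protein replicate 2), and H6pd, which makes NADPH inside the endoplasmic reticulum, had 0.56 (SE 0.111, limma adjusted p = 0.0872). Pgls, the lactonase that acts just before Pgd, had -0.22 (SE 0.111), and Rpe and Rpia, the epimerase and isomerase of the non-oxidative branch, had -0.14 (SE 0.084) and -0.15 (SE 0.087). Me3, a mitochondrial malic enzyme with a dim probe set, had -0.68 (SE 0.294). The array order that Fasn and Acly shared was found in 4 of the 13, Taldo1 and Tkt among them, and in 2.93% of all genes.

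Enzymes that bring acetyl units to the pathway had no member past the test among 15, with 7 higher, 8 lower and a median of -0.07. Mpc2, a subunit of the mitochondrial pyruvate carrier, read 4811, 4508 and 5527 in low-protein livers and 2624, 3429 and 3338 in control livers. The diets did not overlap, and its log2 fold change was 0.67 (SE 0.130, limma adjusted p = 0.0858). Pc, the pyruvate carboxylase, had 0.40 (SE 0.085, limma adjusted p = 0.101). Pdk1, a kinase that inactivates pyruvate dehydrogenase, had -0.38 (SE 0.155), or -0.24 without control replicate 3 and likewise without low-protein replicate 1. Pdha1, a subunit of that dehydrogenase, had -0.28 (SE 0.121), or -0.16 without low-protein replicate 3.

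Among 14 partners and regulators of the carboxylases and the synthase none passed. Of these 9 were lower, against 42.4% of all genes, and the median was -0.06. Mid1ip1, a relative of Thrsp that promotes polymerisation of acetyl-CoA carboxylase, had 177, 314 and 279 in low-protein livers and 545, 313 and 343 in control livers. Low-protein replicate 2 just exceeded control replicate 2, and the log2 fold change was -0.64 (SE 0.256), or -0.39 without control replicate 1 and likewise without low-protein replicate 1. Among subunits of AMP-activated protein kinase, which phosphorylates and inhibits the carboxylases, Prkab1 had -0.55 (SE 0.185; -0.34 without control replicate 1), Prkag2 -0.43 (SE 0.182; -0.19 as the mean of its probe sets) and Prkaa2 -0.33 (SE 0.096), while Prkag1, Prkaa1 and Prkab2 had -0.04, 0.01 and 0.10.

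Upstream of the group, 2 of 19 genes passed, both lower, against 0.12% of all genes; the median of the 19 was -0.001. Mlxipl, which encodes the glucose-responsive factor ChREBP, fell to 133, 161 and 124 in low-protein livers, against 293, 241 and 276 in control livers. The diets were well apart, with a log2 fold change of -0.96 (SE 0.124, limma adjusted p = 0.0414); it did not pass in any fit that left out a single array (adjusted p = 0.0503 to 0.123 in those fits, 0.0329 to 0.123 over all alternatives). Insig1, which holds SREBP in the endoplasmic reticulum and is itself an SREBP target, fell by 1.82 on the log2 scale (SE 0.131, limma adjusted p = 0.00682). Srebf1, the gene of SREBP-1, read 496, 701 and 383 in low-protein livers and 1108, 634 and 757 in control livers. Those values overlapped, and its log2 fold change was -0.67 (SE 0.252, limma adjusted p = 0.262; -0.44 without control replicate 1). Scap, the SREBP escort protein, had -0.37 (SE 0.114), or -0.16 as the mean of its probe sets.

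After palmitate, 2 of 16 genes passed, both lower, against 0.12% of all genes. In this list 13 of 16 were lower, against 42.4% of all genes, and the median was -0.18. At an unadjusted limma p under 0.05, 5 were lower and 1 higher. The 2 that passed were the desaturases Fads1 and Fads2 of polyunsaturated fatty acid synthesis, with log2 fold changes of -2.20 (SE 0.207, limma adjusted p = 0.0104) and -2.02 (SE 0.175, limma adjusted p = 0.0083); Fads1 did not pass without control replicate 2 (adjusted p = 0.0508; 0.00122 to 0.0531 over all alternatives), and Fads2 passed in all but 1 of its 17 alternatives (adjusted p = 0.00468 to 0.0516). Fads1 had 1003, 964 and 1722 in low-protein livers and 5920, 5196 and 5270 in control livers. Pnpla3, a lipid droplet protein that lipogenic factors induce, stood at -2.24 (SE 0.357, limma adjusted p = 0.0595). It passed without control replicate 2 (limma adjusted p = 0.00631, and 0.00631 to 0.158 over all alternatives). It read 24.1, 15.8 and 19.2 in low-protein livers, as dim as Acacb, and 140, 48.1 and 115 in control livers. The size of its difference is therefore uncertain. Acsl3, an acyl-CoA synthetase, had -1.19 (SE 0.182, limma adjusted p = 0.0551), and passed without control replicate 3 (adjusted p = 0.046; 0.0436 to 0.153 over all alternatives). Scd and Elovl6, the desaturase and elongase that act directly on the products of Fasn, had -0.16 (SE 0.233) and -0.02 (SE 0.353), and both overlapped between diets.

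**Figure D4:**
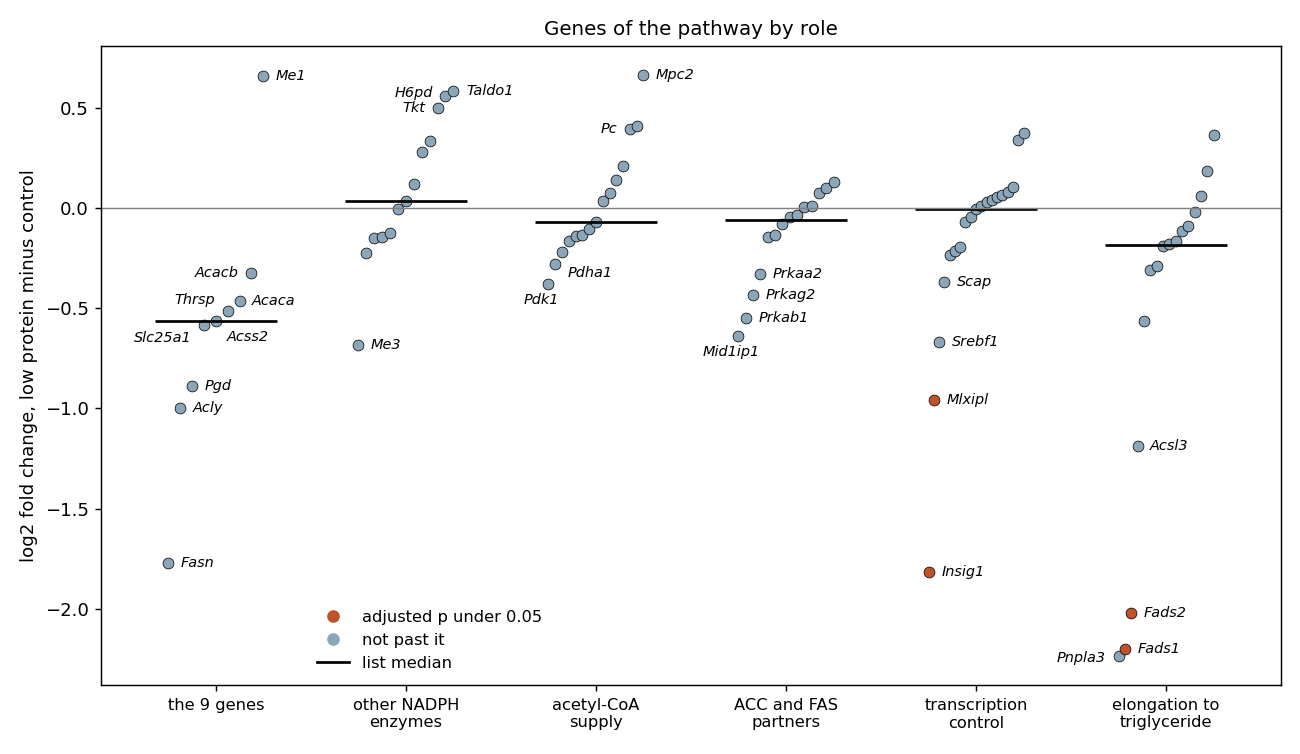
Log2 fold change, low protein minus control, of the 9 genes and of 77 other genes of the pathway by role; each point is a gene, the line is the median of its list, and filled orange points passed an adjusted p under 0.05. The 9 genes have the lowest median, -0.56, the other lists lie between -0.18 and 0.04, and Insig1, Mlxipl, Fads1 and Fads2 are the 4 that passed.

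Adipocytes also express these enzymes, and their markers were looked at for that reason. Of 7 measured adipocyte markers none passed, and 5 were higher. For 2 of the 7, Lep and Adipoq, all low-protein arrays lay above all control arrays, as they did for 12.8% of all genes. The summed intensity of the 7 was 1123 to 1508 on the low-protein arrays and 1145 to 1414 on the control arrays. Most of that sum was Cidec, a lipid droplet protein, with 819 to 1231 on the low-protein arrays and 832 to 1177 on the control arrays. The defining markers were dim: Adipoq had a mean log2 intensity of 4.41 in low-protein livers and 4.28 in control livers, and Plin1 had 4.05 and 3.86 in the same order of diets.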

How the data were processed

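The authors deposited 1 intensity per probe set and array, made with RMA per the submitters' processing notes; its version and a genome build are not stated there. RMA corrects background, normalizes arrays to each other and summarises probes, which hides any shift common to the whole array. Values ran from 3.61 to 21668 and were read as linear, and log2 was taken with no pseudocount or filter. Arrays carry no read depth, and 3 arrays per diet limit the precision.

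Arrays were grouped by title. After 57 Affymetrix control probe sets were set aside, 31042 were compared, low protein minus control, by the moderated two-sided test of limma 3.58.1 (R 4.3.3, eBayes, 4 residual and 8.38 total degrees of freedom), with Benjamini-Hochberg adjustment over all of them. Pathway genes were read from the same fit at the probe set with the highest mean over the arrays. On simulated data for this comparison with 31042 probe sets, 95 of 100 changes of 1 and 99 of 100 changes of 2 (log2) were recovered. There were 23 false calls in all, and 0 calls when none changed. The false calls were a larger share of all calls than the adjusted p threshold of 0.05 aims at. The simulated noise was normal and independent, with limma's moderated variance for each probe set. This checks the procedure and does not give the power for the 9 genes, whose failure to pass does not show that they were unchanged. Gene symbols came from the platform annotation, and the gene IDs of all 9 genes matched RefSeq. Figures used matplotlib 3.10.9.

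The genes and the pathway lists were chosen with earlier results of these data known. Named are the 9 genes, and up to 4 genes of smallest p per pathway list with any that passed. Also named are the 6 genes most like the mean of the 9. Scd, Elovl6, Pgls, Rpe, Rpia, Prkag1, Prkaa1, Prkab2, Adipoq, Plin1, Lep, Cidec and Hbb were chosen after their values were seen. Alternatives were other prior variances, rescaling, filters, array weights, replicate as a block, single arrays left out, and 1 value per gene.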

Additional observations from a re-analysis of the deposited data

How the results depend on the processing

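Each of the 14 probe sets of the 9 genes kept its direction and did not pass in any of the 226 alternative values, and 8 of 9 genes were lower in each alternative but the filter at the median intensity, which dropped Acacb and left 7 of 8. The median of the 9 genes ran from -0.68 without low-protein replicate 2 to -0.41 without control replicate 3. The count of probe sets called over the array was 41 and moved to 103 with a robust prior variance, 78 with median centring, 102 with array weights and 6 with the replicate number as a block; with single arrays left out it ran from 16 to 109. The 4 pathway genes called became 1 with the replicate block, and 3 to 4 with single arrays left out. The causes were not tested. The labels do not say whether the replicate numbers pair the arrays. Deviations of arrays of the same number correlated at -0.09, -0.03 and -0.10, and 0 of 6 arrays correlated best with their own number. With 3 arrays per diet, these values give no sign of a pairing but cannot exclude one. Rescaling shifted the median log2 fold change of all probe sets from 0.03 to between 0.01 and 0.08. Signal over background is not known here for dim probe sets such as Acacb, since the values carry no detection call.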

Other observations

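The 4 probe sets annotated to Pgd together with Cenps, Kif1b and Cort had log2 fold changes of -0.22, -0.15, 0.13 and 0.15, against -0.89 for the probe set of Pgd alone. None of the 4 passed the test, and the annotation does not say which of the 4 genes each one measures.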
